A study of Homo sapiens with 4 samples.

Results

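The HOX genes encode homeodomain transcription factors and lie in 4 clusters, HOXA, HOXB, HOXC and HOXD. The genes described here are a fixed list of 39 symbols, all coding genes but the antisense transcript HOXA11-AS, and their probes were chosen by the RefSeq accession that the array design gives each spot. All 39 genes had a probe, 50 probes in all, against 17240 genes that could be named on the array in the same way. The signal of 49 of the 50 probes was usable, that is, well above local background in at least 1 channel on every array, and these 49 still covered the 39 genes. No measured value entered the choice of the genes.

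HOX proteins give cells their position along the body axis, and the order of the genes on the chromosome follows the order of the body regions in which they act, from anterior to posterior. In the embryo the clusters are kept silent by Polycomb group proteins and opened by trithorax group proteins and retinoic acid. In the female reproductive tract HOXA9, HOXA10, HOXA11 and HOXA13 are known to mark, in that order, the oviduct, the uterus, the lower uterus and cervix, and the upper vagina, and epithelial ovarian tumors are known to express several of them.

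The RNA came from A2780s, a cell line of human ovarian adenocarcinoma. Stable clones were made with an shRNA against GALNT3, which encodes an enzyme that starts mucin-type O-glycosylation, cloned into pSilencer 4.1 puro, and the mock-transfected ctrl clone carries that vector without it; all were selected with puromycin. Total RNA of the clones labelled shRNA-GALNT3 knockdown clone 1 (sh-G1) and clone 2 (sh-G2) was hybridised with ctrl RNA on 4 Agilent Whole Human Genome arrays of 1 slide, 2 arrays for each knockdown clone with the dyes exchanged. Every group is therefore 1 clone of 1 cell line, both knockdown clones share the ctrl clone, and the 2 arrays of a clone count as 1 replicate. The labels spell the ctrl line A27803 in places and A2780s in others.

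Values are log2 ratios of knockdown over ctrl, after background correction and loess normalization, with the dye swaps turned to 1 direction. "Past 1.5-fold" means that both arrays of a clone were at or beyond a log2 ratio of 0.585 in the same direction. Across all 39151 usable probes the median was close to 0 in each clone, -0.0042 for sh-G1 and -0.006 for sh-G2. Between 88.1% and 97.0% of the spots in the knockdown channels and between 95.9% and 97.6% in the ctrl channels were well above background by the scanner software, so that test was a lenient one. GALNT3 itself was not lower on its probe: the log2 ratio was -0.09 and 0.08 in sh-G1 and 0.12 and -0.14 in sh-G2, with a mean of the clones of -0.01 (SE 0.04, adjusted p = 0.963, limma). The probe was above background on 4 of 4 arrays in ctrl and on 1 of 2 in each knockdown clone, and its normalised log2 intensity in ctrl, 6.29 to 6.47, lay little over the lowest signals counted as above background there (5.98 to 6.22). Near this floor the probe showed no knockdown and is a weak check of the labels. The study examined GALNT3 in these clones by other methods, which were not analysed here, and the names sh-G1 and sh-G2 stand below for the clones labelled so.

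The HOX genes that separated the clones lay at the HOXA9 to HOXA13 end of the HOXA cluster. HOXA13, the last gene of the cluster, and HOXA11-AS, which is transcribed opposite to HOXA11, were several-fold higher than ctrl in sh-G1 and lower than ctrl in sh-G2. HOXA9 was close to ctrl in sh-G1 and lower in sh-G2. Outside this end, 1 probe of HOXC8 was the only HOX probe past 1.5-fold in a clone.

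**Figure D1:**
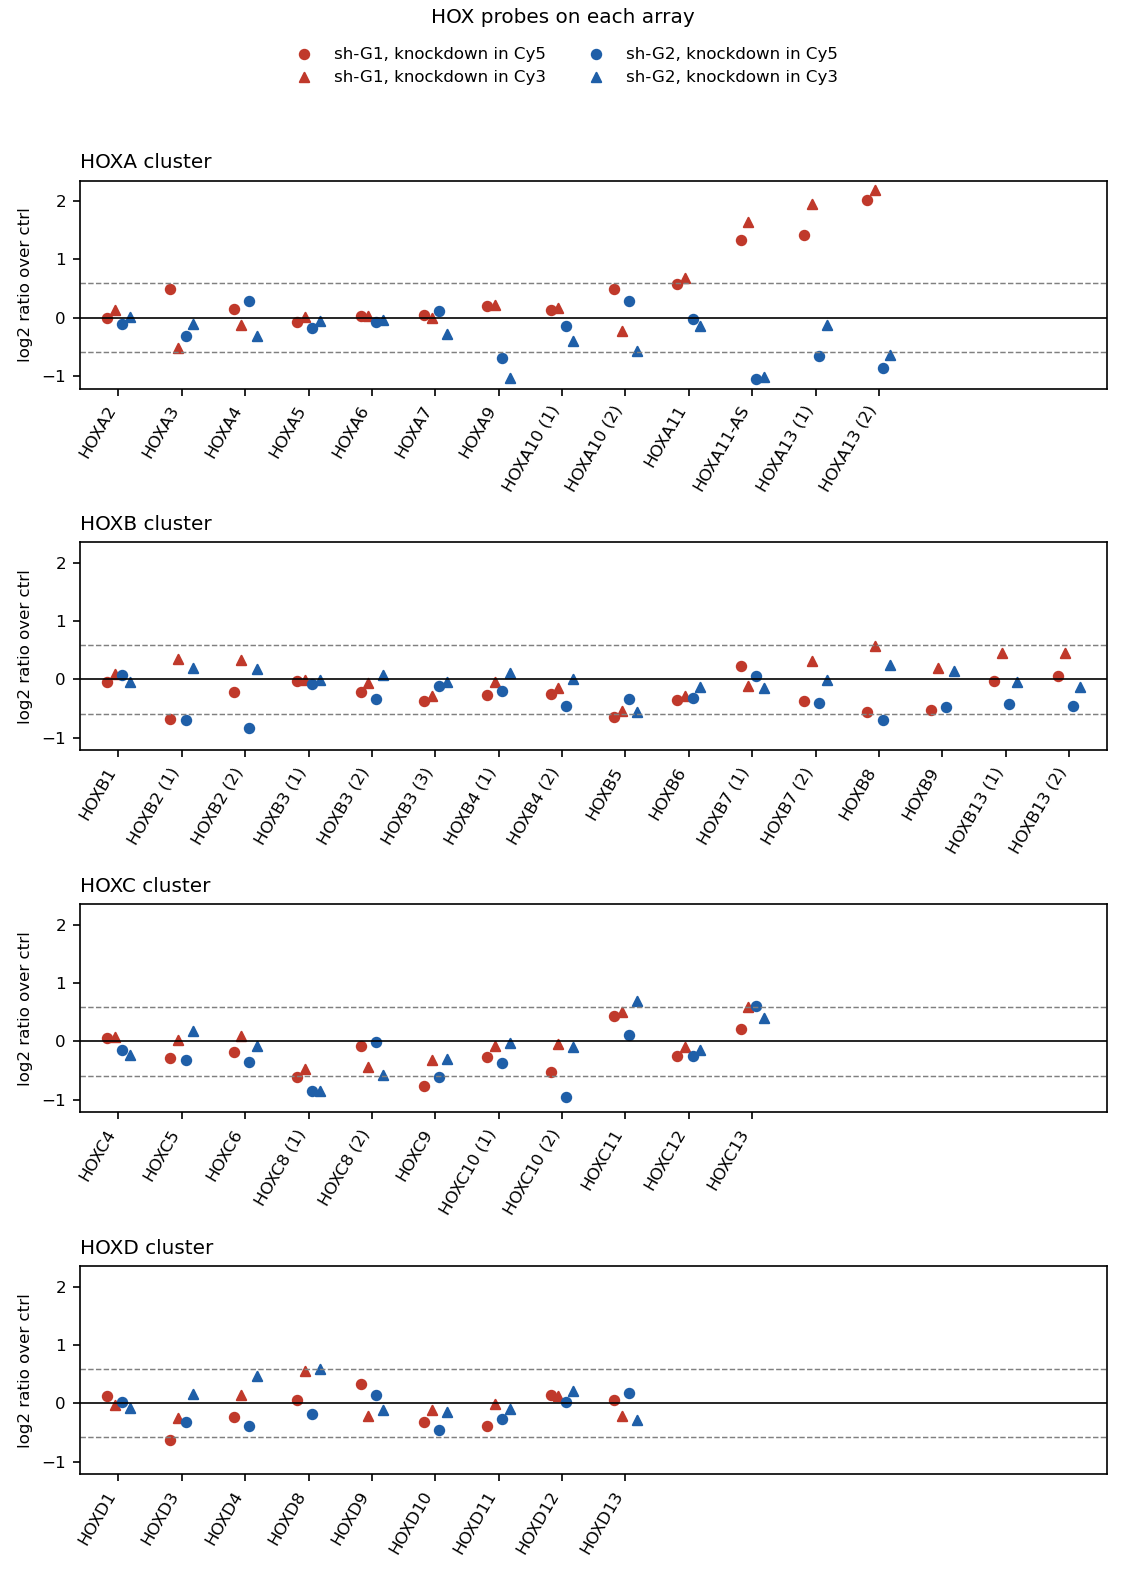
Log2 ratio of knockdown over ctrl (y axis) for each of the 49 usable HOX probes (x axis, in order of paralogue number within each cluster, numbers in brackets for several probes of 1 gene) on each of the 4 arrays, red for sh-G1 and blue for sh-G2, circles for arrays with the knockdown RNA in Cy5 and triangles for Cy3. Dashed lines stand at 1.5-fold. The points fan out at the right end of the HOXA panel, where HOXA13 reaches 2.19 in sh-G1 and HOXA11-AS -1.05 in sh-G2, while a circle and a triangle of opposite sign, as at HOXB8, mark a ratio that followed the dye.

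In sh-G1 3 HOX probes were past 1.5-fold higher, where 0.442% of all usable probes were, and 0 were lower, where 1.24% of all probes were. In sh-G2 0 HOX probes were higher, against 0.552% of all probes, and 4 were lower, against 1.42%. Going past 1.5-fold in opposite directions in the clones was seen for 2 HOX probes, HOXA11-AS and 1 probe of HOXA13, against 0.0153% of all probes. The 3 higher probes in sh-G1 were both probes of HOXA13 and the HOXA11-AS probe. The 4 lower ones in sh-G2 were 1 probe each of HOXA13, HOXA11-AS, HOXA9 and HOXC8.

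The start sites of HOXA9, HOXA11-AS and HOXA13 are shown because these 3 genes hold the probes of the HOXA cluster that were past 1.5-fold in a clone. Each window runs from 250 bases before to 50 bases after the start site, 5′ to 3′ on the strand of the gene, in RefSeq's GRCh38.p14, and capitals mark each CCAAT or TATAAA found on either strand (ATTGG or TTTATA where the match is on the other strand).
HOXA9, chr7:27165488-27165787, minus strand: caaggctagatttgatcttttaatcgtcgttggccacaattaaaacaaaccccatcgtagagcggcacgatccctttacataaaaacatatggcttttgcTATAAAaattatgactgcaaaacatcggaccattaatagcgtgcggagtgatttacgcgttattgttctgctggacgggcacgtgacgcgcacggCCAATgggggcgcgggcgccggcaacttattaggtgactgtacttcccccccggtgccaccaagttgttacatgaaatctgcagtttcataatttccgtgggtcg
HOXA11-AS, chr7:27185158-27185457, plus strand: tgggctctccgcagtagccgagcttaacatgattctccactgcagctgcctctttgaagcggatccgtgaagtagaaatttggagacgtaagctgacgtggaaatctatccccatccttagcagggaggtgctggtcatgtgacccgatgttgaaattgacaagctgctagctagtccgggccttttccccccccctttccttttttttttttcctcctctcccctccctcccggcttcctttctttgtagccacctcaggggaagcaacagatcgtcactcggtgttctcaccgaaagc
HOXA13, chr7:27200042-27200341, minus strand: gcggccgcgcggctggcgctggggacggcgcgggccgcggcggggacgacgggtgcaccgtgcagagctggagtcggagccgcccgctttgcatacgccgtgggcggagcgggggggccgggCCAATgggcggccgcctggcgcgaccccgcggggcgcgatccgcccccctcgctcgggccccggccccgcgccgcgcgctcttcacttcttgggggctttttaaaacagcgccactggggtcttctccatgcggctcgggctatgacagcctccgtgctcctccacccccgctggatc
The window of HOXA11 (chr7:27185183-27185482, minus strand) shares 275 of its 300 bases with that of HOXA11-AS, since these genes start back to back on opposite strands. In HOXA9 a TATAAA began at position -150 and a CCAAT at -55 from the start site. In HOXA13 a CCAAT began at -128, with GGGCGG next to it at -123. Neither CCAAT nor TATAAA is in the HOXA11-AS window.

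The windows differed in composition as well. HOXA13 held 76.3% G and C and 44 CpG dinucleotides, a higher share of G and C than 92.6% of all 35116 promoter windows. The HOXA11-AS window held 52.7% G and C with 12 CpG, and the HOXA9 window 48% with 22 CpG. A CCAAT on either strand was present in 34.6% of all windows and in 18 of the 28 windows found for 21 of the HOX genes. TATAAA was present in 11.5% of all windows and 5 of the HOX windows, and GGGCGG in 45% and 13. A match is a description of the letters only.

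HOXA13 patterns the hands, the feet and the lower genital tract, and changes in it underlie hand-foot-genital syndrome. On probe A_23_P389281 the log2 ratio was 2.02 and 2.19 in sh-G1 and -0.86 and -0.64 in sh-G2. Both arrays of sh-G1 thus lay above ctrl and both of sh-G2 below it, a 4.30-fold level in sh-G1 and a 0.594-fold level in sh-G2. The difference between the clones was 2.86 (SE 0.13, 7.25-fold, adjusted p = 0.0166, limma). On this probe the normalised log2 intensity was 12.96 and 13.16 in sh-G1, 10.15 and 10.18 in sh-G2, against 10.94, 10.97, 11.01 and 10.82 in the ctrl channels. The readings of the 3 groups did not overlap, but they repeat 1 clone each. The share of all probes that part in this way was not counted.

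The other HOXA13 probe, A_23_P31306, had log2 ratios of 1.42 and 1.95 in sh-G1 and -0.66 and -0.12 in sh-G2. It went the same way as A_23_P389281, with a difference between the clones of 2.08 (SE 0.09, 4.22-fold, adjusted p = 0.0147, limma). Only 1 of the sh-G2 arrays was past 1.5-fold, and the probe was above background in sh-G2 on 1 of 2 arrays, so the size of the fold is uncertain. The difference was 2.75 with a background offset of 0 and 3.13 from the software's own log ratio. Its intensity was 8.74 and 9.15 in sh-G1, 6.80 and 6.82 in sh-G2, against 6.94 to 7.46 in ctrl. The lowest signals counted as above background in the sh-G2 channels were 6.22 and 6.77.

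HOXA11-AS, a noncoding RNA, had log2 ratios of 1.34 and 1.64 in sh-G1 and -1.05 and -1.01 in sh-G2. These stand for a 2.81-fold and a 0.489-fold level, and the clones differed by 2.52 (SE 0.11, 5.74-fold, adjusted p = 0.0168, limma). The intensity was 10.65 and 10.99 in sh-G1, 8.28 and 8.09 in sh-G2, against 9.10 to 9.34 in ctrl. It was the only HOX probe that was lower than ctrl by more than 2-fold on both arrays of a clone. The strand that the probe reads was not checked.

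HOXA11, the coding gene on the other strand, acts in the uterus and the limb. Its log2 ratio was 0.58 and 0.67 in sh-G1 and -0.03 and -0.14 in sh-G2. In sh-G1 the first array lay just under 1.5-fold (0.5816 against 0.585), so HOXA11 is singled out here after its values were seen. Under several other ways of processing the arrays it was past 1.5-fold higher in sh-G1, as given in the last section. The difference between the clones was 0.71 (SE 0.10, adjusted p = 0.150, limma) and did not pass the threshold. In sh-G2 the probe was above background on 1 of 2 arrays.

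HOXA9, which is known for its part in leukemia and marks the oviduct, had log2 ratios of 0.19 and 0.22 in sh-G1 and -0.69 and -1.03 in sh-G2. Its intensity was 8.689 and 8.447 in sh-G1, 7.504 and 7.143 in sh-G2, against 8.172 to 8.497 in ctrl. The level in sh-G2 was 0.551-fold. The difference between the clones was 1.06 (SE 0.12, adjusted p = 0.0972, limma), which missed the threshold.

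HOXA10, needed in the endometrium for implantation, lies between HOXA9 and HOXA11 and had smaller ratios. Probe A_23_P253368 was at 0.13 and 0.17 in sh-G1 and -0.15 and -0.40 in sh-G2, and probe A_24_P77904 at 0.49 and -0.23 in sh-G1 and 0.28 and -0.57 in sh-G2. The sign on the second probe followed the dye in both clones. The differences between the clones were 0.42 (SE 0.11) and 0.27 (SE 0.09), with adjusted p = 0.435 and 0.572 (limma).

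**Figure D2:**
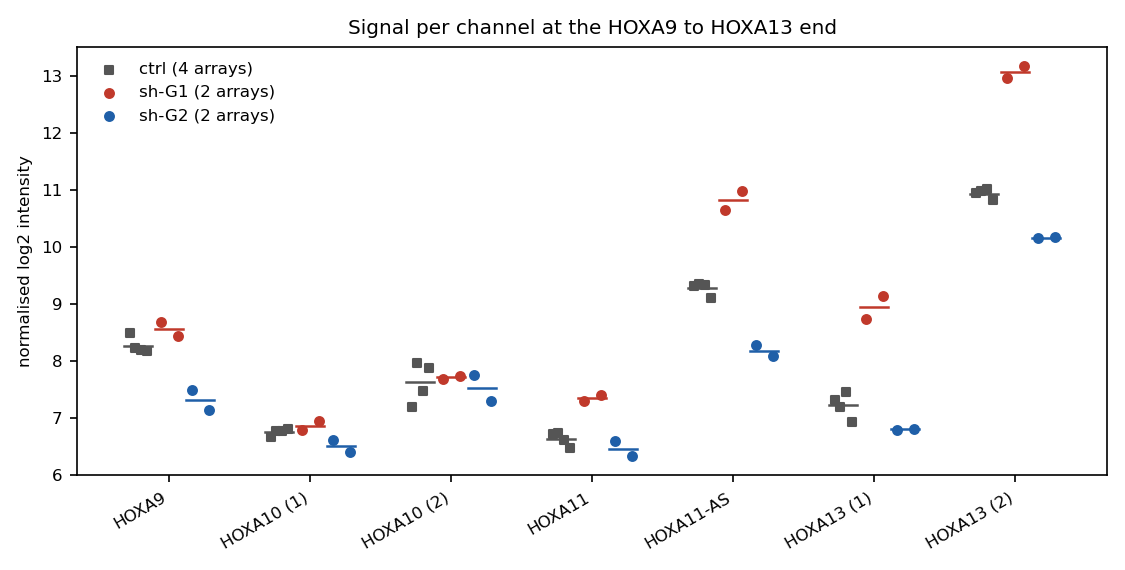
Normalised log2 intensity (y axis) of the 7 probes from HOXA9 to HOXA13 (x axis) in the ctrl channels (grey, 4 arrays), sh-G1 (red, 2 arrays) and sh-G2 (blue, 2 arrays), with a line at each mean. Groups are to be compared within a probe only. The 3 groups stand apart for HOXA11-AS and both HOXA13 probes, for HOXA9 sh-G2 alone stands below, and for the second HOXA10 probe the groups overlap. The readings of a group repeat the same clone. The share of all probes whose groups part like this was not counted, so the parting is a description only.

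As a group, the 7 probes of HOXA9, HOXA10, HOXA11, HOXA11-AS and HOXA13 had medians of 0.63 (sh-G1) and -0.39 (sh-G2) and a median difference between the clones of 1.06, where the median difference of all usable probes was 0.004. In 7 of 7 the difference had an unadjusted p under 0.05 (limma), always higher in sh-G1, where 2.72% of all probes were. After adjustment 3 of the 7 passed, against 0.0843% of all probes in that direction. This end was marked off after its values were seen, so these figures describe it and are no separate test. The 6 usable probes of HOXA2 to HOXA7, the other end of the cluster, had medians of 0.02 and -0.07 and a median difference of 0.10. An unadjusted p under 0.05 was seen in 0 of 6, and 0 were past the adjusted threshold. At that unadjusted p 4.73% of all probes were higher in sh-G2 and 2.72% went the other way, so 0 of 6 is a weak contrast. HOXA3, the most variable of these 6, was at 0.48 and -0.52 in sh-G1 and -0.32 and -0.12 in sh-G2 on its usable probe.

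Over the 49 HOX probes, 3 differed between the clones with an adjusted p under 0.05 (limma), all 3 higher in sh-G1, where 0.0843% of all probes were. None was higher in sh-G2, where 0.0383% of all probes were. With an unadjusted p under 0.05, 12 HOX probes were higher in sh-G1, against 2.72% of all probes, and 1, HOXD3, was higher in sh-G2, against 4.73%. Of these 13 probes, 7 belonged to HOXA9 to HOXA13, 3 to HOXB, 2 to HOXC and 1 to HOXD. Each p here covers only the spread between hybridisations, which may be technical, since the labels name no separate cultures or extracts of a clone.

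Outside the HOXA9 to HOXA13 end the clones lay closer together. The differences ran from -0.37 for HOXD3 (SE 0.12, adjusted p = 0.583, limma) to 0.55 for HOXB13, a gene of the prostate and the tail end of the embryo (probe A_24_P365015, SE 0.13, adjusted p = 0.361, limma). The other HOXB13 probe, A_23_P4212, differed by 0.45 (SE 0.13, adjusted p = 0.491, limma). Its ratios were -0.03 and 0.46 in sh-G1 and -0.42 and -0.04 in sh-G2, and those of A_24_P365015 were 0.07 and 0.46, and -0.46 and -0.12. On both probes the sh-G1 and sh-G2 arrays of the same dye orientation differed in the same direction.

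**Figure D3:**
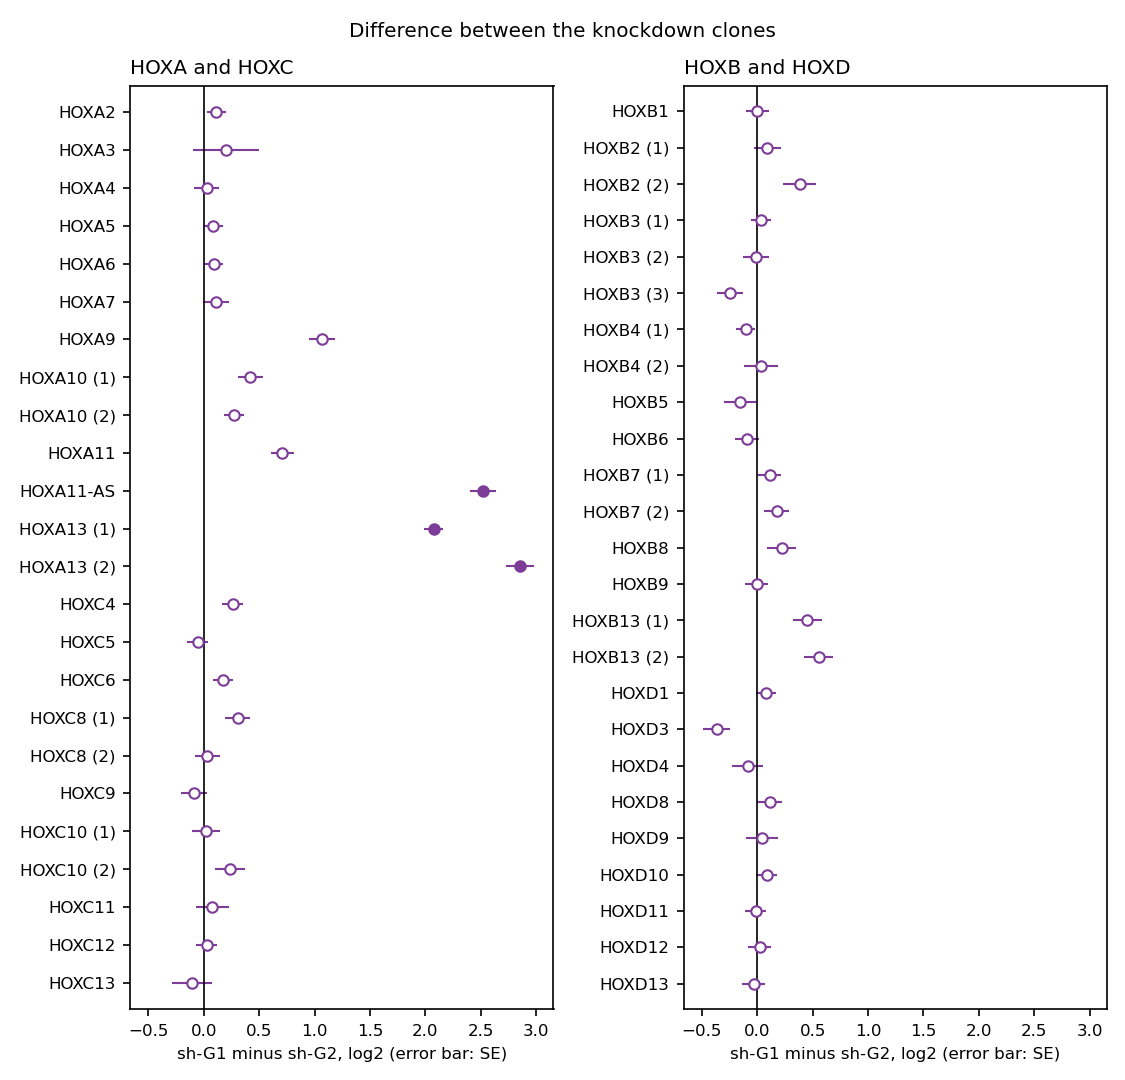
Difference in log2 ratio between the clones, sh-G1 minus sh-G2 (x axis, with its SE as error bar), for the 49 usable HOX probes (y axis), HOXA and HOXC on the left, HOXB and HOXD on the right. Filled points have an adjusted p under 0.05. Only HOXA11-AS (2.52) and the HOXA13 probes (2.08 and 2.86) are filled, and HOXA9 (1.06) and HOXA11 (0.71) come next.

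The genes on either side of HOXA were set beside it. EVX1, a homeobox gene that follows HOXA13 in the reference, had log2 ratios of 0.18 and -0.18 in sh-G1 and 0.15 and -0.28 in sh-G2, signs that followed the dye. HIBADH, farther out on that side, was at 0.32 and 0.60 in sh-G1 and -0.09 and 0.17 in sh-G2. TAX1BP1, after HIBADH, was at 0.59 and 0.70 in sh-G1 and -0.02 and 0.04 in sh-G2, a difference between the clones of 0.63 (SE 0.12, adjusted p = 0.239, limma). TAX1BP1 was thus past 1.5-fold in sh-G1, and its difference did not pass.

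On the HOXA2 side, SKAP2 was at 0.16 and -0.18 in sh-G1 and 0.19 and -0.23 in sh-G2. SNX10, a sorting nexin, was higher than ctrl in both clones (0.95 and 0.92, adjusted p = 0.0364 for the mean, limma), and NFE2L3, a transcription factor of the CNC family, was lower in both (-0.914 and -1.004, adjusted p = 0.0248, limma). These genes did not separate the clones, with differences of 0.03 (SE 0.13) for SNX10 and 0.09 (SE 0.09) for NFE2L3.

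**Figure D4:**
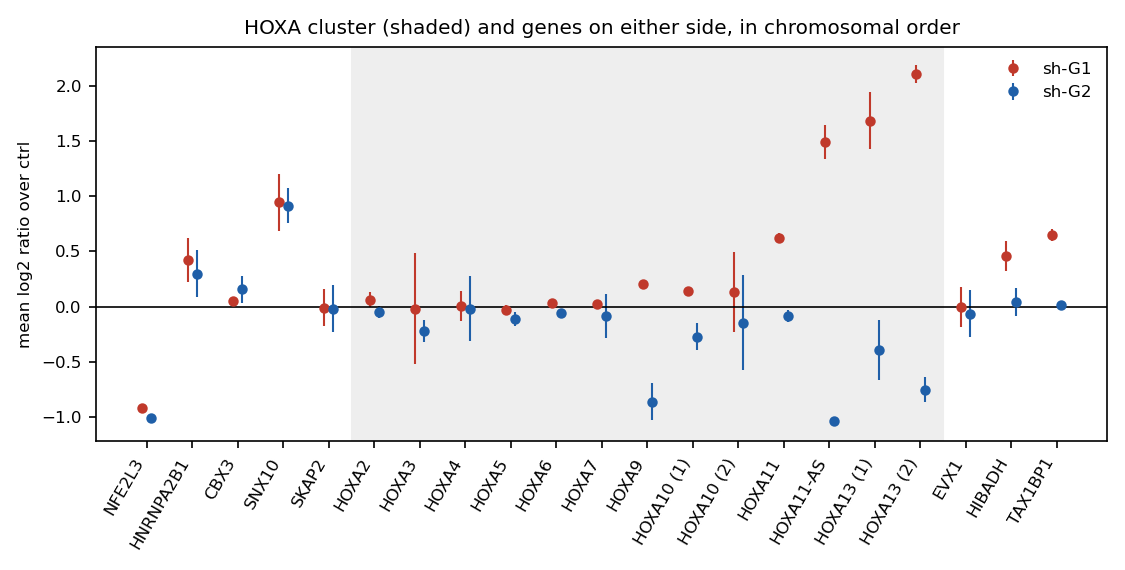
Mean log2 ratio over ctrl (y axis) in sh-G1 (red) and sh-G2 (blue) for the HOXA probes (shaded) and 8 listed genes on either side (x axis, chromosomal order in the reference, not to scale and with other genes left out). Bars run between the 2 arrays of a clone. The clones part at HOXA9 and from HOXA11 to HOXA13, and by less at the first HOXA10 probe (0.15 in sh-G1, -0.27 in sh-G2). At the second HOXA10 probe the bars overlap. The clones lie together at EVX1, SKAP2, SNX10 and NFE2L3. Beyond EVX1 they part again at HIBADH (0.46 in sh-G1, 0.04 in sh-G2) and TAX1BP1 (0.65 and 0.01).

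When the clones were averaged, 0 HOX probes passed an adjusted p of 0.05 in either direction (limma), where 0.138% of all probes were called higher and 0.7% lower. With an unadjusted p under 0.05, 4 HOX probes were higher, against 5.28% of all probes, and 13 lower, against 8.02%. With the 4 arrays fitted separately and the clone as a random block, limma called 2 HOX probes higher, against 2.17% of all probes, and 7 lower, against 4.4%. That fit enters both hybridisations of a clone, which count as 1 replicate, so its calls rest partly on a spread that may be technical. The 7 lower ones were HOXB5, HOXB6, HOXC8, HOXC9, HOXC12, HOXD10 and HOXD11, and the higher ones HOXC11 and HOXC13. A value of the mean can come from the ctrl clone as well as from the knockdown clones, and these cannot be told apart.

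The genes from HOXC8 to HOXC10 lay below ctrl in both clones. HOXC8, which acts in the thoracic spine and in motor neurons, had log2 ratios of -0.61 and -0.48 in sh-G1 and -0.85 and -0.85 in sh-G2 on probe A_23_P398476. All 4 arrays were below 0, with a mean of the clones of -0.70 (SE 0.10, adjusted p = 0.125, limma). The other HOXC8 probe, A_24_P124558, was at -0.08 and -0.44 in sh-G1 and -0.0035 and -0.58 in sh-G2, with a mean of -0.28 (SE 0.05, adjusted p = 0.190, limma). The probes of HOXC8 thus had the same direction but not the same size.

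HOXC9, a gene of thoracic identity, was lower than ctrl on all 4 arrays, at -0.77 and -0.32 in sh-G1 and -0.62 and -0.30 in sh-G2, with a mean of -0.50 (SE 0.06, adjusted p = 0.101, limma). HOXC10 was lower on all 4 arrays on both of its probes, between -0.37 and -0.03 on A_23_P36546 and between -0.95 and -0.05 on A_24_P218805. On both HOXC10 probes the arrays with the knockdown RNA in Cy5 gave the lower ratio. HOXC12 was also lower on all 4 arrays, but its probe was not well above background on either sh-G2 array, so no fold is given there.

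Of the last genes of HOXC, HOXC11 and HOXC13 lay above ctrl. HOXC11 was higher than ctrl on all 4 arrays, at 0.44 and 0.50 in sh-G1 and 0.10 and 0.68 in sh-G2, with a mean of 0.43 (SE 0.05). Its adjusted p of 0.0866 (limma) was the lowest of the 49 HOX probes for the mean of the clones. HOXC13, a gene of hair and nail, was at 0.20 and 0.59 in sh-G1 and 0.61 and 0.40 in sh-G2, with a mean of 0.45 (SE 0.06, adjusted p = 0.129, limma). HOXC4, HOXC5 and HOXC6, at the start of the cluster, stayed between -0.36 and 0.17 on every array.

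In HOXB the lowest mean was that of HOXB5, known from the developing lung and gut, at -0.65 and -0.55 in sh-G1 and -0.33 and -0.55 in sh-G2 (mean -0.52, SE 0.07, adjusted p = 0.127, limma). HOXB6 lay between -0.35 and -0.12 on the 4 arrays. HOXB2, a hindbrain gene, was at -0.67 and 0.35 in sh-G1 and -0.70 and 0.20 in sh-G2 on probe A_23_P107283. HOXB8 was at -0.56 and 0.57 in sh-G1 and -0.69 and 0.25 in sh-G2, and HOXB9 at -0.53 and 0.19, and -0.47 and 0.14. For these 3 genes the arrays with the knockdown in Cy5 read lower than ctrl and those in Cy3 higher, so no direction is given.

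HOXD, whose last genes pattern the limb and the genitalia, had no probe past 1.5-fold. HOXD3 was at -0.64 and -0.25 in sh-G1 and -0.32 and 0.16 in sh-G2, and HOXD8 at 0.06 and 0.55, and -0.19 and 0.58. HOXD10 was lower on all 4 arrays, between -0.46 and -0.12 (mean -0.26, SE 0.05, adjusted p = 0.204, limma), and HOXD11 between -0.38 and -0.01. HOXD13 had signs that followed the dye, 0.06 and -0.22 in sh-G1 and 0.18 and -0.28 in sh-G2. HOXD12 was not well above background on either sh-G2 array and on 1 of the 2 of sh-G1.

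By cluster, the median log2 ratios in sh-G1 and sh-G2 were 0.13 and -0.14 in HOXA, -0.08 and -0.21 in HOXB, -0.17 and -0.20 in HOXC and -0.05 and -0.03 in HOXD. Lower than ctrl on all 4 arrays were 12 of the 49 HOX probes, where 9.04% of all probes were, and higher on all 4 were 3, where 6.21% of all probes were. The 12 comprised 4 probes of HOXB, 6 of HOXC, 2 of HOXD and 0 of HOXA. The arrays of a clone had the same sign for 30 of the 49 HOX probes in sh-G1 and 29 in sh-G2, against 40.6% and 34.9% of all probes.

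By paralogue number, the groups 1 to 3 (10 probes) had medians of -0.01 (sh-G1) and -0.08 (sh-G2), the groups 4 to 8 (18 probes) -0.04 and -0.16, and the groups 9 to 13 without HOXA11-AS (20 probes) 0.13 and -0.20. The HOX probes were measured in most channels. Well above background on all 4 arrays in ctrl were 49 of the 50 probes, on both arrays of sh-G1 48 and on both arrays of sh-G2 43. In sh-G2 4 probes, 1 each of HOXA10, HOXA11, HOXA13 and HOXC4, were above background on 1 array, and 3 on neither. The probe left out, the second one of HOXA3, was among the 3.

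Genes known to act on HOX clusters or with HOX proteins mostly had small ratios. The TALE cofactors, which bind DNA together with HOX proteins, had 10 measured genes of 11 listed. Of these 0 were past 1.5-fold in either clone and 0 were called for the mean or between the clones (limma). An unadjusted p under 0.05 was seen for 1 in the mean, where 5.28% of all probes were higher and 8.02% lower. Between the clones it was seen for 3, where 2.72% of all probes were higher in sh-G1 and 4.73% higher in sh-G2. The Polycomb list had 25 of 26 genes measured, and 1 of them, PCGF5, a subunit of a noncanonical PRC1 complex, was past 1.5-fold lower in both clones (-1.06 and -0.80, adjusted p for the mean = 0.0607, limma). Of all probes 1.24% were lower by that rule in sh-G1 and 1.42% in sh-G2. None of 17 trithorax and H3K27 demethylase genes was past 1.5-fold or called by limma. For the mean 3 had an unadjusted p under 0.05, beside the same 5.28% and 8.02% of all probes. Between the clones 1 of them and 1 of the Polycomb genes had an unadjusted p under 0.05.

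Of the retinoic acid pathway 18 of 19 genes were measured and 0 were called by limma. For the mean 7 had an unadjusted p under 0.05, where 5.28% of all probes were higher and 8.02% lower. Between the clones 4 had an unadjusted p under 0.05, where 2.72% of all probes were higher in sh-G1 and 4.73% in sh-G2. DHRS3, which reduces retinaldehyde to retinol, was higher (sh-G1 0.67, sh-G2 0.96) and past 1.5-fold in sh-G2 alone. Its difference between the clones was -0.30 (SE 0.12, adjusted p = 0.688, limma). None of the 5 measured CDX and ParaHox genes was past 1.5-fold or called, with 0 at an unadjusted p under 0.05. Among 29 of 30 genes next to the 4 clusters, 2 were past 1.5-fold higher (SNX10 and TAX1BP1) and 2 lower (NFE2L3 and NFE2) in sh-G1. Of all probes 0.442% were higher and 1.24% lower there. In sh-G2 SNX10 was higher and NFE2L3 and NFE2 lower, against 0.552% and 1.42% of all probes. Between the clones 5 of the 29 had an unadjusted p under 0.05, beside the same 2.72% and 4.73% of all probes. NFE2, a CNC factor beside HOXC, was at -1.31 in sh-G1 and -0.66 in sh-G2 (adjusted p for the mean = 0.194, limma).

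Markers of cell type were read beside these results. Of 11 Müllerian and ovarian cancer markers 0 were past 1.5-fold in either clone, and their summed linear intensity was 12001 to 13502 in sh-G1, 12118 to 12696 in sh-G2 and 12995 to 15481 in ctrl. Of 9 epithelial markers KRT8 and KRT18, a keratin pair of simple epithelia, were lower in both clones (-1.05 and -1.01, and -2.58 and -2.07, adjusted p for the mean = 0.0317 and 0.0365, limma), and the summed intensity was 7443 to 8052 in sh-G1, 8005 to 8179 in sh-G2 and 16556 to 18370 in ctrl. The other 7 epithelial markers were not past 1.5-fold. Of all probes 1.24% were past 1.5-fold lower in sh-G1 and 1.42% in sh-G2.

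Of 8 measured fibroblast markers 1 was past 1.5-fold higher and 3 lower in sh-G1, and 1 higher and 5 lower in sh-G2. Over all probes the shares were 0.442% higher and 1.24% lower in sh-G1, and 0.552% and 1.42% in sh-G2. The small leucine-rich proteoglycans LUM (sh-G1 -4.58, sh-G2 -2.04) and DCN (-4.24 and -2.09) differed between the clones, being lower in sh-G1, with differences of -2.53 (SE 0.12, adjusted p = 0.0182, limma) and -2.15 (SE 0.14, adjusted p = 0.0300, limma). PDGFRA, a growth factor receptor, was lower in both clones (-1.11 and -1.21, adjusted p for the mean = 0.0214, limma). COL3A1, a fibrillar collagen named after its values were seen, was higher in both (0.91 and 0.90, adjusted p for the mean = 0.0349, limma). The summed intensity of the 8 was 65966 to 70721 in sh-G1, 75946 to 76421 in sh-G2 and 72042 to 78782 in ctrl. COL3A1 was the brightest of them, and without it the sum of the other 7 was 10573 to 10761 in sh-G1, 13997 to 14753 in sh-G2 and 42201 to 44807 in ctrl. Of 6 leukocyte markers 0 were past 1.5-fold, with sums of 5915 to 7495 in sh-G1, 6009 to 6506 in sh-G2 and 5553 to 7160 in ctrl. All markers were above background in every ctrl channel by the lenient test. The part of these markers in the HOX differences was not tested.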

How the data were processed

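The deposited scanner files hold, per the file headers, spot intensity values in red and green from Agilent Feature Extraction 10.5.1.1, while the submitters' processing notes name version 8.5.1.1; the array design follows hg18. Their log10 ratio of red over green, made by the authors with the same software, and the deposited value table (the same log10 ratios, except 1 column equal to the log ratio error of its array, which was not used) served as alternatives, turned to log2. From the median spot intensity, normexp with an offset of 50 and loess were run in limma 3.58.1 (R 4.3.3, statmod 1.5.0), leaving out control spots and 145 to 215 spots per array marked as outliers. Of 41000 probes, 40905 had all values and 39151 were well above background in at least 1 channel on every array. A total of 25398 probes were named through RefSeq accessions without version (GRCh38.p14).

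The 2 arrays of a clone were averaged, and the 2 clone means were fitted against 0 in limma with an intensity trend; this leaves out the spread of ctrl. The clones were compared on 4 arrays with terms for clone and dye, which leaves 1 residual degree of freedom per probe. P-values were adjusted by Benjamini-Hochberg over all 39151 probes. Intensities per channel were read after loess and Aquantile; no probe was compared with another. Where sh-G2 was above background on neither array, a bound was computed from the lowest detected signal, or the probe's own where larger. It lay near the ctrl level and is not given. Precision is limited by the number of arrays. The 2 limma fits were tried on simulated log ratios with 1 spread for all probes, and the 1.5-fold rule on a small made-up example. The steps before them were not simulated. Probes are named where both arrays of a clone were past 1.5-fold or an adjusted p was under 0.05, with the gene's other probes; the others are given in ranges, by the ends, and for each list of genes up to 3 genes past 1.5-fold; HOXA10, HOXA11, the HOXB, HOXC and HOXD genes with values and the neighbours of HOXA were added after their values were seen. For genes of a list with several probes, the brightest was used. The members and lists were chosen with earlier results of these data known. One gene that the naming rule would give is not reported here. Figures used matplotlib 3.10.9.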

Additional observations from a re-analysis of the deposited data

Results flagged for a closer look

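The knockdown clones differed from each other, in a test of the difference itself (limma, sh-G1 minus sh-G2), for 3 HOX probes. HOXA11-AS differed by 2.52 on the log2 scale, and the probes of HOXA13 by 2.08 (A_23_P31306) and 2.86 (A_23_P389281). All 3 were higher than ctrl on both arrays of sh-G1 and lower on both arrays of sh-G2. Both clones carry the same shRNA and each is 1 isolate, so what belongs to a clone and what the shRNA does cannot be told apart.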

How the results depend on the processing

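The counts of HOX probes past 1.5-fold were 3 higher and 0 lower in sh-G1 and 0 higher and 4 lower in sh-G2. From the series matrix values they were 6 higher and 5 lower in sh-G1, and the mean of the clones then called 1 HOX probe higher and 2 lower instead of 0 and 0. In that table only 1 array of sh-G1 has a usable column. With a 2-fold threshold 1 probe, HOXA11-AS, was lower in sh-G2. With the mean of the arrays past the threshold in place of each array, 1 probe was lower in sh-G1 and 4 were higher, with HOXA11 added. HOXA11 also made the higher probes of sh-G1 4 from the software's own log ratio and with a background offset of 0. The same held without background correction and with median centring. With the clone as a random block, limma called 2 HOX probes higher and 7 lower for the mean of the clones, a fit that enters both hybridisations of a clone. Leaving out each array in turn gave 3 to 5 higher and 0 to 5 lower in sh-G1, 0 to 1 higher and 4 to 10 lower in sh-G2, and 0 to 1 called higher and 0 to 2 called lower for the mean; the 5 higher came without sh-G1 replicate 1, the 5 lower without sh-G1 replicate 2 and the 10 without sh-G2 replicate 2, settings in which a clone rests on 1 array. The cause was not tested. HOXA11-AS and HOXA13 A_23_P389281 kept an adjusted p under 0.05 between the clones in 8 of the 8 alternatives that refit this test (0.0114 to 0.0358 and 0.0112 to 0.0269), and HOXA13 A_23_P31306 in 7 of the 7 that kept the probe (0.00908 to 0.0358, with differences of 2.01 to 3.13). HOXA9 stayed above 0.05 in 8 of 8 (0.0506 to 0.163). Of 144 values of named probes under the alternatives 0 turned sign and 22 moved by more than the spread between arrays. The difference between the clones was not fitted with an array left out or on the series matrix values, since its dye and clone terms then leave no residual degrees of freedom.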
